A study of Mus musculus with 12 samples.

Results

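Of the 55416 genes counted in 12 RNA-seq libraries, 7 are described here: the MEF2 transcription factor genes Mef2a (ENSMUSG00000030557), Mef2c (ENSMUSG00000005583) and Mef2d (ENSMUSG00000001419), and the class IIa histone deacetylase genes Hdac4 (ENSMUSG00000026313), Hdac5 (ENSMUSG00000008855), Hdac7 (ENSMUSG00000022475) and Hdac9 (ENSMUSG00000004698). The rule names them as a transcription factor family and the repressors that bind it and uses no measured value, though it was written with earlier results of these data known. All 7 passed the filter on low counts. The remaining MEF2 gene, Mef2b, had 5 counts over the 12 libraries and could not be tested.

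The libraries came from C2C12, an established mouse myoblast line whose cells fuse into myotubes when serum is lowered. Wild-type cells (WT) and cells labelled Mapk14 knockout (KO) were grown to about the same confluence. They then spent 5 days in either GM, the growth medium with 10% fetal bovine serum, or DM, the differentiation medium with 2% horse serum, which gave 4 groups of 3 biological replicates. Whether the replicates were separate cultures, how Mapk14 was edited and how many clones there were is not given in the sources used here, so the p-values measure the spread between these libraries. The labels give 1 batch date for all libraries.

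MEF2 proteins bind DNA as dimers and act with the myogenic bHLH factors, such as MyoD and myogenin, on muscle structural genes. Class IIa HDACs have little deacetylase activity of their own and hold MEF2 in a repressing complex with HDAC3 and its corepressors. Calcium and AMP-dependent kinases phosphorylate them, 14-3-3 proteins then keep them in the cytoplasm, and p38 kinases, of which Mapk14 encodes the alpha form, phosphorylate MEF2A and MEF2C themselves.

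Totals were 8821669 to 11536396 counts per library. Mapk14 RNA served as the check on the KO label and was not called different from WT in either medium. CPM are counts scaled to library size. It lay at 108 to 135 CPM in WT GM and 130 to 137 in KO GM, and in DM at 88.7 to 93.9 in WT and 84.5 to 93.8 in KO. Whether the label holds at the protein level was not tested, and each direction given below between WT and KO is between libraries so labelled. The 6 myoblast markers had counts in every group and summed to 1705 to 1823 CPM in WT GM, 3629 to 3709 in WT DM, 600 to 731 in KO GM and 1356 to 1510 for KO in DM, so this sum moved with both the medium and the label. Des held 915 ± 72.9 CPM of it in WT GM and 122 ± 21.1 in KO GM (SD, n = 3). Ncam1, also in the sum, was not lower in KO GM, at 159 ± 14.5 CPM against 152 ± 2.74 in WT GM. The 6 macrophage and leukocyte markers summed to 7.80 to 12.5 CPM over the 4 groups. Of these, Ptprc, Adgre1 and Tyrobp were at 0 counts throughout, Itgam held 3 counts in all, and Csf1r (group means of 8.09 to 9.52 CPM, called in no comparison) and Cd68 (1.20 to 2.86 CPM, called lower in DM in WT, adjusted p = 0.00962) made up the sum. The 6 endothelial and the 6 neural markers summed to at most 3.17 and 2.05 CPM. The 6 epithelial markers summed to 0.898 to 4.60 CPM in WT GM, WT DM and KO GM and to 13.4 to 14.4 in KO DM, where 5 of the 6 were at 0 and Krt14 made up the sum. The part of these markers in the results below was not tested. In bulk RNA, fewer cells that express a gene and less RNA of it per cell cannot be told apart.

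Promoters of 4 members are printed first, picked because they hold letters that MEF2 or its bHLH partners could read. The windows are RefSeq sequence of build GRCm38.p6, from 250 bases before to 30 bases after an annotated start, 5′ to 3′ on the strand of the gene. Capitals mark matches to the MEF2 site (C or T, TA, 4 letters of A or T, TA, A or G) and to CANNTG, the E-box that bHLH dimers bind. Both were searched on the strand of the gene, over the whole window of 250 bases before and 50 after the start. Both motifs read alike on the 2 strands.
Mef2a, chr7:67372829-67373108, minus strand: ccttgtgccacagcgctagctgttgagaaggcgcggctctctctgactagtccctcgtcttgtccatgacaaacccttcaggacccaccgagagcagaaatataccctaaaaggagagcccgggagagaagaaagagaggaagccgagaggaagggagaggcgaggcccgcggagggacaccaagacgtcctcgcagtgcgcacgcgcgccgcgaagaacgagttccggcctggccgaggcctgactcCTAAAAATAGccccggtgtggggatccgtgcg
Hdac5, chr11:102230143-102230422, minus strand: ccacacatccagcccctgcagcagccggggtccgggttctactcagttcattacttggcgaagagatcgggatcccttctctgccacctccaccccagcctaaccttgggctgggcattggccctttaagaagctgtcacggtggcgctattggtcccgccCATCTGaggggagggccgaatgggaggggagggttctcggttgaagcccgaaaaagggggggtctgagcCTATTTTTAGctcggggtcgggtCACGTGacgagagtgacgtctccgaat
Mef2c, the first of 3 starts, chr13:83503784-83504063, plus strand: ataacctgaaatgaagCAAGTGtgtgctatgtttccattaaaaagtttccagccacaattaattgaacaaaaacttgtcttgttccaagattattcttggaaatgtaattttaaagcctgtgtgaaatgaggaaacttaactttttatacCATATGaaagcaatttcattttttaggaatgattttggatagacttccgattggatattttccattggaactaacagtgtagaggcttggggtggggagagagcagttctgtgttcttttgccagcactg
Hdac9, the first of 2 starts in coordinate order, chr12:34528860-34529139, minus strand: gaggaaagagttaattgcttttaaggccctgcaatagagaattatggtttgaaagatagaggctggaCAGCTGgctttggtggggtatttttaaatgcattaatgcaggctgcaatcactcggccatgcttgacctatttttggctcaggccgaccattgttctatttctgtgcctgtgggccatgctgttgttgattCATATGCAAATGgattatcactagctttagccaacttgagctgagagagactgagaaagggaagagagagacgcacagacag
The MEF2 site was found in 2 of the 13 windows of the 7 members, as CTAAAAATAG at Mef2a and CTATTTTTAG at Hdac5, and in 3.19% of all 32851 windows. In the Mef2a window it was the single match to either motif, and at Hdac5 it lay among the E-boxes CATCTG and CACGTG. The 3 Mef2c windows held 2, 0 and 1 matches to CANNTG, which 72.3% of all windows hold. Each Hdac9 window held 1 CAGCTG, which 16.3% of all windows hold, with 3 and 2 matches to CANNTG in all. An Hdac7 window, not printed here, held 2 CAGCTG, and the other Hdac7 windows held 0, 0 and 1 matches to CANNTG. The Mef2d and the Hdac4 window, also not printed, held 0 matches to either motif. These matches describe letters in short windows. Which start was used could not be read from counts per gene.

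In WT cells, all 7 genes changed with the medium, and at each of them the 3 GM and the 3 DM libraries did not overlap. How many of all genes separate in this way was not computed. Listed genes that were not called, such as Hdac10 and Camk2d, also did so. The 3 MEF2 genes and Hdac9 rose in DM, whereas Hdac4, Hdac5 and Hdac7 fell. Of the 13250 genes tested in this comparison, 33.2% were called at an adjusted p below 0.05, 18.4% higher and 14.8% lower. The median of the 7 log2 changes was 0.32, against -0.01 over all genes tested. Values below are CPM scaled by edgeR, and changes are log2 fold changes ± SE from edgeR's quasi-likelihood test, with p adjusted over all genes by the Benjamini-Hochberg method.

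**Figure D1:**
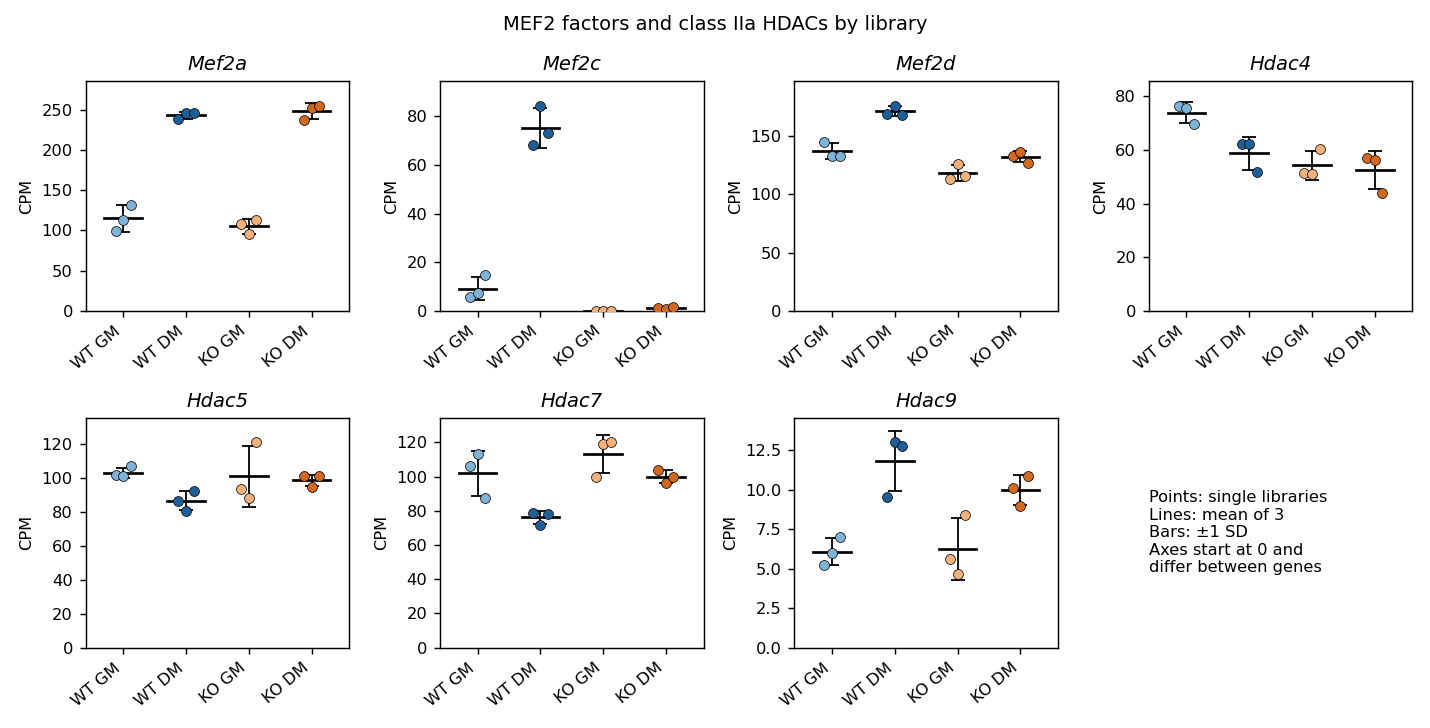
CPM of the 7 genes in each of the 12 libraries (points), with the mean (line) and ±1 SD (bar) of the 3 libraries of WT GM, WT DM, KO GM and KO DM, on axes that start at 0 and differ between genes. Every DM library of Mef2a lies above every GM library, at 237 CPM or more, Mef2c was at 0 in the 3 KO GM libraries and at most 1.76 CPM in KO DM, and the 3 WT DM libraries of Hdac7 lie below every other library.

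Mef2a, which is expressed widely as well as in muscle, stood at 99.2, 113 and 132 CPM in the WT GM libraries and at 238, 246 and 246 in WT DM. The KO GM libraries held 108, 95.2 and 113 CPM, and the KO DM libraries 237, 252 and 255. Under both labels every DM library was above every GM library, and the KO libraries lay among or beside the WT libraries of the same medium. Mef2a rose by 1.08 ± 0.09 in WT (adjusted p = 3.10e-09) and by 1.23 ± 0.09 in KO (adjusted p = 3.01e-10), that is 2.12-fold and 2.35-fold. The difference between these responses was 0.15 ± 0.12, with a 95% interval of -0.11 to 0.41 (adjusted p = 0.500). KO differed from WT by -0.13 ± 0.09 in GM (adjusted p = 0.357) and by 0.03 ± 0.09 in DM, where the interval ran from -0.15 to 0.20 (adjusted p = 0.856).

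Mef2c, the form most tied to differentiating muscle, had 5.76, 7.20 and 14.6 CPM in WT GM and 68.1, 84.3 and 73.0 in WT DM. It had no count in any KO GM library, and 1.11, 0.654 and 1.76 CPM in KO DM, from 11, 7 and 19 counts. The groups formed 4 separate levels with no overlap, KO GM lowest, then KO DM, WT GM and WT DM. The rise in WT was 3.03 ± 0.30 (8.14-fold, adjusted p = 0.000112). KO DM was 63.0-fold below WT DM, a change of -5.98 ± 0.41 (adjusted p = 1.26e-05).

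For the group at 0 counts only bounds can be given. A count of 3 over the 3 KO GM libraries corresponds to 0.0934 CPM, which puts Mef2c at least 98.3-fold lower in KO GM than in WT GM (adjusted p = 0.000537) and at least 12.6-fold higher in KO DM than in KO GM (adjusted p = 0.0254). These floors cover counting error only. The call of the rise in KO ended when KO GM replicate 1, 2 or 3 or KO DM replicate 1 or 3 was left out (adjusted p = 0.0554, 0.0572, 0.0540, 0.0616 and 0.0700). The difference between the responses of the 2 labels cannot be sized for Mef2c, since the fitted value rests on the count added to the zeros.

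Mef2c was not lower together with its neighbours on the chromosome. These 8 genes, 4 protein-coding genes on each side in RefSeq order on GRCm38.p6, were looked at after the zeros had been seen. All 8 had counts in every group. In GM the nearest on either side were Cetn3, a centrin gene, at 38.9 ± 3.66 CPM in KO and 41.1 ± 4.89 in WT (SD, n = 3), and Tmem161b, at 8.34 ± 0.784 and 7.84 ± 1.99. The Cetn3 change was -0.08 ± 0.12 (adjusted p = 0.681) and the Tmem161b change 0.09 ± 0.20 (adjusted p = 0.806). None of the 8 was called lower in KO in either medium, and Ccnh (0.32 ± 0.10, adjusted p = 0.0264) and Rasa1 (0.35 ± 0.09, adjusted p = 0.00518) were called higher in GM.

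**Figure D2:**
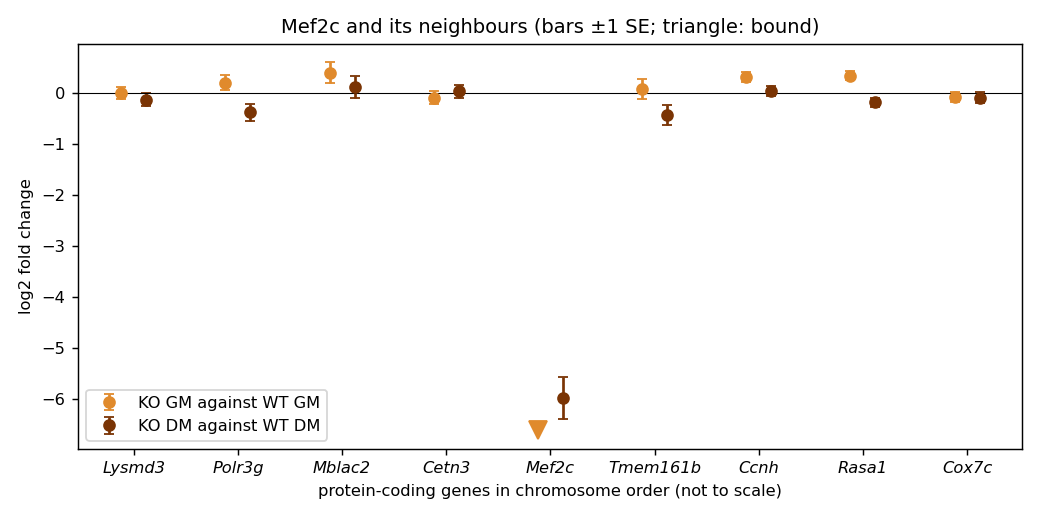
Log2 fold change of KO against WT in GM (light) and in DM (dark) for Mef2c and the 4 protein-coding genes on each side of it, in chromosome order and not to scale, with bars of ±1 SE and a triangle for the bound at 0 counts. The 8 neighbours lie near 0, whereas Mef2c lies at -5.98 in DM and at or below -6.62 in GM.

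Mef2d, the third MEF2 gene, moved little in size. Its libraries held 145, 133 and 133 CPM in WT GM, 169, 176 and 168 in WT DM, 113, 126 and 116 in KO GM, and 133, 136 and 127 in KO DM. WT DM was the highest group and KO GM the lowest, and the KO libraries lay below all WT libraries of the same medium. Mef2d rose by 0.32 ± 0.07 in WT (adjusted p = 0.000928). Its 0.16 ± 0.07 in KO was not called (adjusted p = 0.0715), although the 3 DM libraries were above the 3 GM libraries. It was lower in KO than in WT by -0.37 ± 0.07 in DM (adjusted p = 0.000245) and by -0.21 ± 0.07 in GM (adjusted p = 0.0343).

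The GM call of Mef2d ended without WT GM replicate 1 or 2 or KO GM replicate 1 or 3 (adjusted p = 0.133, 0.0529, 0.117 and 0.0696), with no filter on low counts (0.0837) and in a fit of the 6 GM libraries alone (0.0937). Its KO response was called in 6 of the 23 alternatives, among them the fits without WT GM replicate 1 (adjusted p = 0.0374), WT GM replicate 3 (0.0277) or KO GM replicate 2 (0.0422). The responses of the 2 labels differed by -0.16 ± 0.10, with an interval of -0.36 to 0.04 (adjusted p = 0.343).

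Per length, Mef2c was the lowest of the 3 MEF2 RNAs in all 4 groups. Gene lengths were taken from GENCODE M21 on GRCm38, while the counts were made on GRCm39. With the union of exons as the length, Mef2c made up 1.85% ± 0.911 of the summed MEF2 level in WT GM, 9.57% ± 0.786 in WT DM, 0% in KO GM and 0.193% ± 0.0934 in KO DM (SD, n = 3). Mef2d made up 73.1%, 57.2%, 73.3% and 56.6%, and Mef2a 25.0%, 33.2%, 26.7% and 43.2%, in the same order. With the longest transcript as the length, Mef2a led Mef2d in DM (50.2% against 36.1% in WT and 64.4% against 35.3% in KO), so the order of these 2 genes in DM depended on the length used. In GM Mef2d led Mef2a under both lengths, by less with the longest transcript (53.5% against 43.5% in WT).

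**Figure D3:**
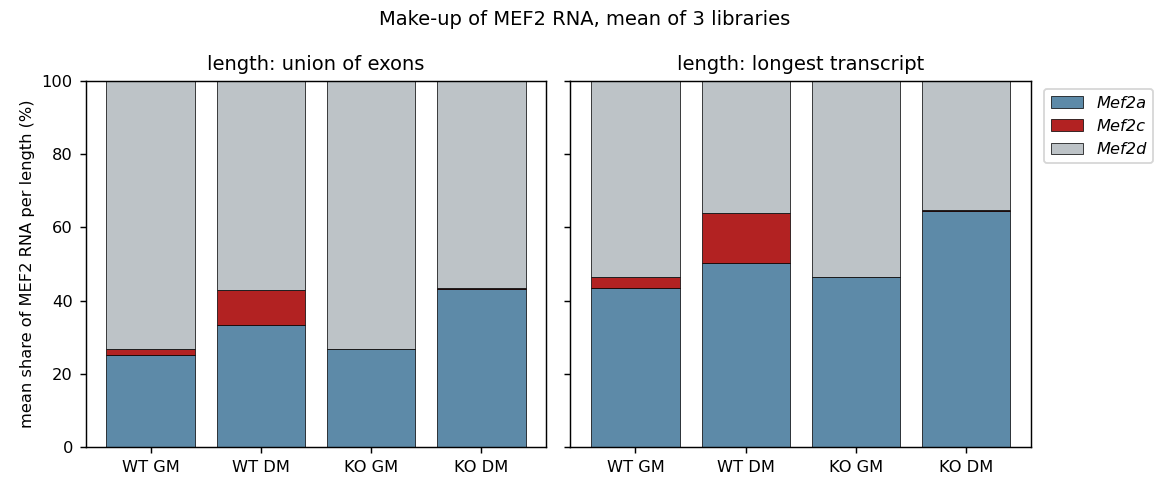
Stacked mean share (%, n = 3 libraries) of Mef2a, Mef2c and Mef2d in the sum of their levels per length in each group, with the union of exons (left) and the longest transcript (right) as the length. Mef2c is visible in WT DM at 9.57% (left) and 13.7% (right) and absent in KO GM under both.

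Of the class IIa HDACs, Hdac4, known for its rise after denervation of muscle and its block on MEF2, stood at 76.5, 75.8 and 69.5 CPM in WT GM. It held 62.2, 62.2 and 51.8 CPM in WT DM, 51.4, 51.0 and 60.3 in KO GM, and 57.1, 56.1 and 44.1 in KO DM. The WT GM libraries were above all other libraries, and the other 3 groups overlapped one another. Hdac4 fell by 0.33 ± 0.10 in WT DM (adjusted p = 0.0147). This call ended without WT DM replicate 3, the lowest of that group (adjusted p = 0.101). In GM, Hdac4 was lower in KO than in WT, with a change of -0.45 ± 0.10 (adjusted p = 0.00278).

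Between KO DM and KO GM, Hdac4 changed by -0.05 ± 0.10, with an interval of -0.26 to 0.16 (adjusted p = 0.743), and KO DM differed from WT DM by -0.16 ± 0.10 (adjusted p = 0.254). The test of the difference between the responses gave 0.28 ± 0.15 (adjusted p = 0.247).

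Hdac5, which shuttles out of the nucleus when calcium-dependent kinases phosphorylate it, had 102, 101 and 107 CPM in WT GM and 86.6, 80.8 and 92.1 in WT DM. KO GM held 93.3, 88.2 and 121 CPM, and KO DM 101, 94.9 and 101. KO GM replicate 3 was the highest of all 12 libraries, and WT DM was the lowest group by its mean. Hdac5 fell by 0.25 ± 0.09 in WT (adjusted p = 0.0426), the weakest of the 7 calls, which was lost in 9 of 23 alternatives. Among these were DESeq2 (adjusted p = 0.0593), limma-voom (0.0537), dispersion without robust estimation (0.0557) and the fits without WT GM replicate 1, 2 or 3 (0.0742, 0.0610 and 0.0814), WT DM replicate 1 or 2 (0.0725 and 0.144) or KO DM replicate 1 (an adjusted p of 0.05 after rounding).

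In the KO libraries Hdac5 changed by -0.03 ± 0.09 with the medium (adjusted p = 0.804), with an interval of -0.23 to 0.16. KO DM was above WT DM in all 3 libraries by 0.19 ± 0.09, which was not called (adjusted p = 0.141) but was called without KO GM replicate 3 (0.0321), with no filter on low counts (0.0493) and in a fit of the 6 DM libraries alone (0.0163).

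Hdac7, the class IIa member best known from vessels and thymocytes, had 106, 113 and 87.6 CPM in WT GM, 78.8, 71.6 and 78.0 in WT DM, 100, 119 and 120 in KO GM, and 104, 96.1 and 100 in KO DM. The 3 WT DM libraries were below the other 9. Hdac7 fell by 0.42 ± 0.09 in WT (adjusted p = 0.000927) and was higher in KO DM than in WT DM by 0.39 ± 0.09 (adjusted p = 0.00199), the one member called higher under the KO label. Its change in KO was -0.18 ± 0.09 (adjusted p = 0.120), which was called without KO GM replicate 1 (-0.25, adjusted p = 0.0397). In GM, KO differed from WT by 0.15 ± 0.09 (adjusted p = 0.266).

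By the M21 annotation, 29 exon bases of Hdac7 overlap Slc48a1, a haem transporter gene on the opposite strand that also had the second most similar profile to Hdac7. Whether the counting used strand is not given in the sources used here, so a small share of reads could belong to either gene. Overlaps of 2.06% of the Mef2a exon bases with Lysmd4 and 8.87% of those of Mef2d with 1700113A16Rik, both on the opposite strand, are of the same kind. Mir8101 in Hdac5 had 0 counts. For Gm26720, which overlaps 22.4% of the Hdac4 exon bases, no count was found, and whether it was among the genes counted was not checked.

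Hdac9, whose short form MITR lacks the deacetylase domain and represses MEF2 in muscle, was low. It had 5.25, 6.02 and 6.99 CPM in WT GM and 9.56, 13.0 and 12.8 in WT DM, 5.58, 4.68 and 8.42 in KO GM, and 10.1, 8.96 and 10.9 in KO DM. Under both labels the 3 DM libraries were above the 3 GM libraries. Hdac9 rose by 0.95 ± 0.21 in WT (1.94-fold, adjusted p = 0.000952) and by 0.68 ± 0.21 in KO (1.60-fold, adjusted p = 0.0111), the call in KO ending without KO GM replicate 2 (adjusted p = 0.0797). KO differed from WT by 0.04 ± 0.22 in GM (adjusted p = 0.934) and by -0.24 ± 0.20 in DM, with an interval of -0.65 to 0.16 (adjusted p = 0.384). The counts do not part the full-length form from MITR. Per length, Hdac9 was the lowest class IIa RNA in every group under both lengths, with 1.31% to 3.14% of their sum over exon unions. Hdac7 held the largest share by exon unions (47.2% in WT GM and 43.9% in WT DM, against 36.9% and 38.4% for Hdac5), but with the longest transcript Hdac5 led in WT DM (40.6% against 37.3%).

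Across the 4 comparisons, 7 of the 7 members were called in WT between media, and 3 in KO (Mef2a, Mef2c and Hdac9, all higher), where 40.6% of all genes were called (20.8% higher and 19.8% lower). Between labels in GM 3 were called (Mef2c, Mef2d and Hdac4, all lower), against 20.7% of all genes (10.0% higher and 10.6% lower). In DM, 3 were called (Mef2c and Mef2d lower, Hdac7 higher), against 31.0% (13.6% higher and 17.4% lower). The medians of the 7 changes were 0.16, -0.13 and -0.16 in these 3 comparisons. Over all genes tested they lay within 0.02 of 0. In KO between media, the share of the 7 genes called was close to that of all genes.

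**Figure D4:**
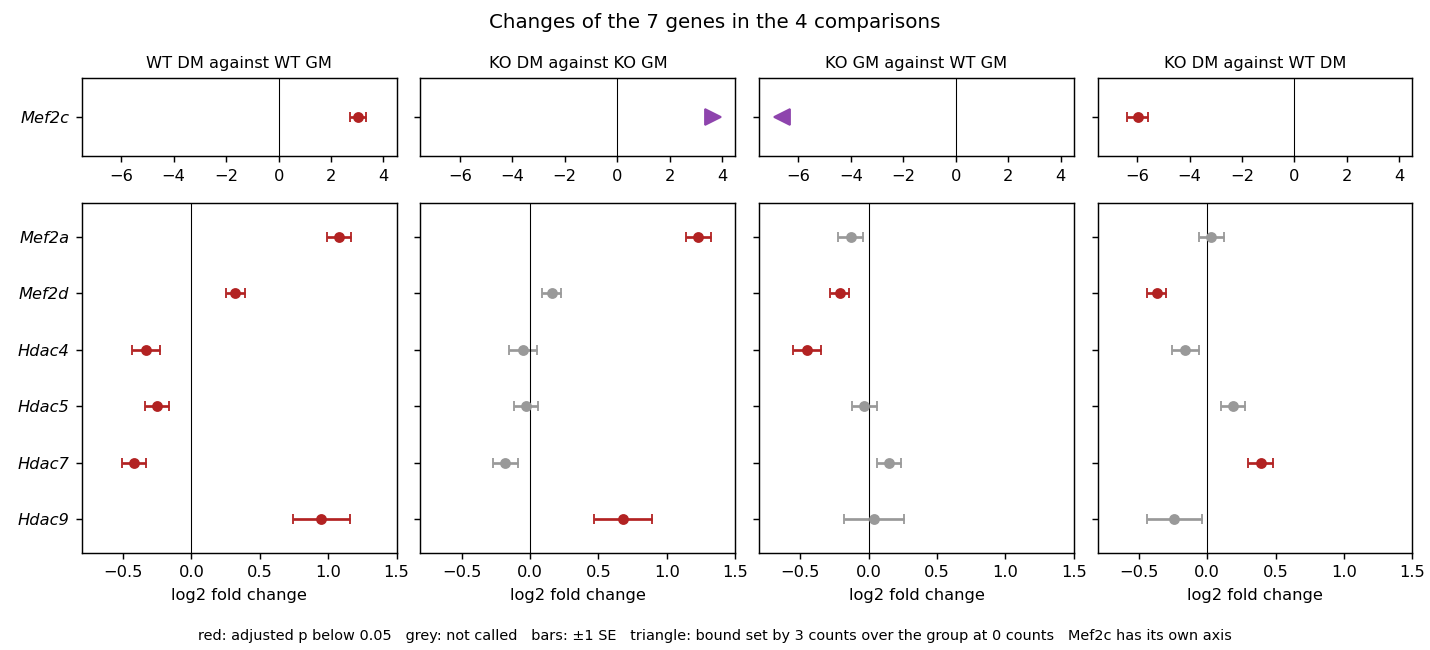
Log2 fold change of the 7 genes in the 4 comparisons, with bars of ±1 SE, red where the adjusted p was below 0.05, grey where it was not, and triangles for bounds against 0 counts. Mef2c has an axis of its own, and the other 6 genes span -0.45 to 1.23.

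The difference between the 2 responses to DM was called for none of the 7 genes by edgeR, with 8.86% of all genes called (3.61% higher and 5.25% lower). With scaling by total counts alone, 57.8% of these calls over all genes were higher, against 40.7%. The lowest unadjusted p of the 7 was 0.0646, for Hdac4, so 0 of them had one below 0.05, and DESeq2 and limma-voom also called 0. Mef2c adds nothing to these counts, since its difference cannot be sized with 0 counts in KO GM. For Hdac4, Hdac5 and Hdac7, the 3 genes that fell in WT and were not called in KO, the differences were 0.28 ± 0.15, 0.22 ± 0.13 and 0.25 ± 0.13 (adjusted p = 0.247, 0.337 and 0.257), and the intervals of -0.02 to 0.58, -0.06 to 0.50 and -0.02 to 0.51 reach from about no difference to one larger than the WT fall. Without WT GM replicate 3 the difference was called for Hdac7 (0.37, adjusted p = 0.0335), and without KO GM replicate 3 for Hdac5 (0.39, adjusted p = 0.0156). With both of these libraries left out, it was called for Hdac4 (0.44, adjusted p = 0.0223), Hdac5 (0.38, adjusted p = 0.0104) and Hdac7 (0.41, adjusted p = 0.00761). No other pair was left out. KO GM replicate 3 held the highest KO GM values of Hdac4, Hdac5 and Hdac7 (60.3, 121 and 120 CPM). WT GM replicate 3 held the lowest WT GM values of Hdac4 and Hdac7 (69.5 and 87.6 CPM). Leaving these values out raises the difference by itself, so the calls are no separate evidence of one. Calls over all genes rose as well, from 1174 with all 12 libraries to 2709 with both left out, and to 1920 without KO GM replicate 3.

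Among the 12 libraries the genes with the most similar profiles were found by Pearson's r of log2 CPM over 10781 genes. These values describe profiles that share library and group, and carry no test. Mef2a was followed most closely by Igf1 (r = 0.997), a growth factor gene that rose from 4.56 ± 3.31 CPM in WT GM to 153 ± 32.0 in WT DM and from 3.44 ± 1.88 to 220 ± 36.8 in KO, then by Synpo2 (0.994) and Bicd2 (0.991). Mef2c was followed by Tubb2b (0.988), Tmsb4x (0.988) and Map2 (0.987), of which Tubb2b and Tmsb4x held 54.5 ± 2.25 and 199 ± 13.4 CPM in KO GM, where Mef2c was at 0. For Mef2d the closest was Plekho1 (0.968), for Hdac4 Qpctl (0.930), for Hdac5 Has2 (0.916), for Hdac7 Inf2 (0.968) and for Hdac9 Utp14b (0.970). Between members, r was highest for Mef2c with Mef2d (0.91) and Mef2a with Hdac9 (0.90), and lowest for Mef2c with Hdac7 (-0.83) and Mef2d with Hdac7 (-0.82).

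Of the 16 genes listed as MEF2 targets in muscle, 13 could be tested. In WT 11 were called higher and 1 lower in DM (median change 2.64), where 18.4% of all genes were called higher, and in KO 11 higher and 2 lower (median 3.68), where 20.8% were called higher. Ckm, muscle creatine kinase, went from 3.42 ± 1.22 to 31.2 ± 1.14 CPM in WT and from 0.395 ± 0.273 to 6.65 ± 0.591 in KO. Xirp2, an actin-binding protein of striated muscle, had 0 counts in KO GM and 2.54 ± 0.387 CPM in KO DM, at least 27.2-fold more, close to the 2.52 ± 0.576 of WT DM. The exceptions were the early-response gene Nr4a1, which fell by 1.62 ± 0.15 in WT and by 0.84 ± 0.14 in KO, and Jun, which fell by 0.24 ± 0.08 in KO, a call that ended in 3 of the 12 fits with 1 library left out (highest adjusted p = 0.163, without KO GM replicate 2).

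Between labels in GM, 9 of the 13 targets were called lower in KO and none higher (median -2.38, or -2.32 with Xirp2 at its bound), against 10.6% of all genes called lower. Jun, Nr4a1, Srpk3 and Xirp2 were not called. Among the 9 was Des, the gene of the muscle filament protein desmin, at 122 ± 21.1 CPM against 915 ± 72.9 in WT. In DM 9 were called lower, against 17.4% of all genes, and Nr4a1 higher (median -1.28). The DM calls of Myog and Myom1 ended when any 1 of the 6 DM libraries was left out (highest adjusted p = 0.0991 and 0.0825), and that of Nr4a1 without WT DM replicate 1 or 3 or KO DM replicate 1 (highest 0.166). Des stood at 343 ± 29.6 against 1790 ± 28.5 CPM. The comparisons between labels share libraries with those between media. The myoblast marker sum, which holds Des, was lower in KO in both media, although Ncam1 within it was not lower in GM.

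**Figure D5:**
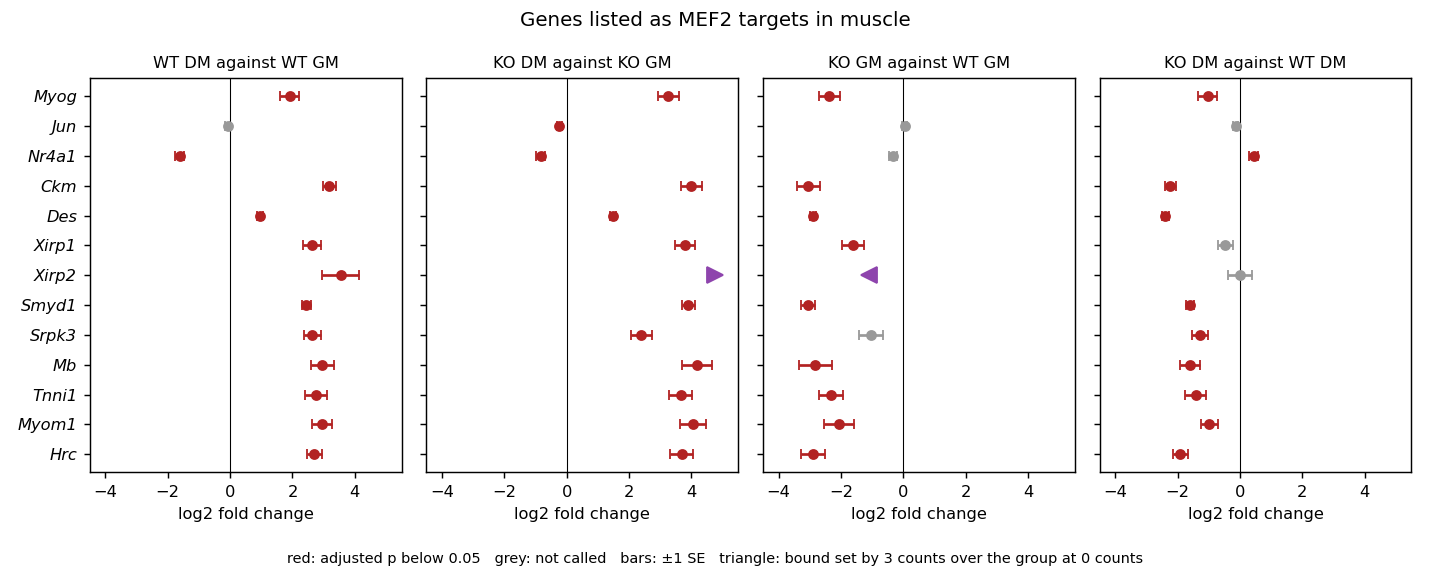
Log2 fold change of the 13 tested genes listed as MEF2 targets in the 4 comparisons, with bars of ±1 SE, red where the adjusted p was below 0.05, grey where it was not, and triangles for bounds against 0 counts. In WT between media 11 of the 13 genes lie to the right of 0 and are called, and between labels in GM 9 lie to the left and are called.

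The bHLH partners of MEF2 (6 of 7 tested) had 4 called higher in DM in WT (Myog, Myod1, Myf5 and Tcf4) and 4 in KO (Myog, Myod1, Tcf12 and Tcf4). Of all genes tested, 18.4% were called higher in DM in WT and 20.8% in KO. Between labels, 10.6% of all genes were called lower in KO in GM and 17.4% in DM. Myog, Myod1 and Myf5 were called lower in KO than in WT in both media. The Myod1 calls ended without WT GM replicate 3 or WT DM replicate 2 for the rise in WT (adjusted p = 0.0861 and 0.128) and without WT DM replicate 2 or KO DM replicate 3 between labels in DM (0.0593 and 0.0571), and the Myf5 rise without WT GM replicate 2 or WT DM replicate 2 (0.0661 and 0.0566). Myog, the myogenin gene, differed between labels by -2.38 ± 0.34 in GM and by -1.04 ± 0.31 in DM (adjusted p = 0.0325). Myog and the acetylcholine receptor genes also belong to the denervation circuit of HDAC4, in which 7 of 7 tested genes rose in WT DM, 6 in KO DM, and 6 were lower in KO in each medium. With 1 library left out, 4 to 7 were called lower in DM and 5 to 6 in GM. Besides Myog, Chrng, the gamma subunit of the receptor, lost its DM call without any 1 WT DM library or KO DM replicate 2 or 3 (adjusted p = 0.0534 to 0.0807), and Gadd45a lost its GM call in 8 of the 12 such fits (highest adjusted p = 0.113). Chrnd, the delta subunit of that receptor, rose by 1.61 ± 0.10 in WT and by 2.54 ± 0.11 in KO. Dach2, the repressor between HDAC4 and myogenin in that circuit, had 0 counts in all groups.

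For the lists that follow, with 6 to 18 tested genes each, the shares of all genes called were 33.2% between media in WT, 40.6% in KO, and 20.7% and 31.0% between labels in GM and DM, and no list was tested against them. Among 18 tested kinases that act on class IIa HDACs or lie upstream of them, 6 rose and 2 fell in DM in WT, and 6 rose and 2 fell in KO. Camk2a, the alpha chain of calcium/calmodulin-dependent kinase II, had the largest change in both, from 3.42 ± 0.978 to 43.5 ± 4.02 CPM in WT (3.67 ± 0.16, adjusted p = 3.70e-13) and from 3.50 ± 0.356 to 23.0 ± 1.69 in KO (adjusted p = 2.18e-11). In DM it was lower in KO by -0.92 ± 0.13 (adjusted p = 6.73e-06). Prkaa2, the alpha 2 subunit of AMP-activated kinase, rose by 1.17 ± 0.20 in WT and by 0.63 ± 0.22 in KO, where the call ended in 3 of the 12 fits with 1 library left out (highest adjusted p = 0.131, without KO DM replicate 3), and was lower in KO DM than in WT DM by -1.11 ± 0.20 (adjusted p = 0.000163). Sik1, a salt-inducible kinase gene, rose by 0.68 ± 0.11 in WT (adjusted p = 6.30e-05) and by 1.27 ± 0.12 in KO. It was lower in KO than in WT by -1.03 ± 0.12 in GM (adjusted p = 1.85e-06) and by -0.44 ± 0.11 in DM (adjusted p = 0.00433). Between labels in GM 1 of the 18 was called higher (Camk2d) and 3 lower (Sik1, Mark2 and Camk2g), and in DM 3 higher (Camkk1, Camkk2 and Sik2) and 6 lower. The GM calls of Mark2 and Camk2g ended without WT GM replicate 1 (adjusted p = 0.0694) and without KO GM replicate 1 (0.0647). Those of Camk1d in WT, Camkk2 in KO, and Camk2b and Camk2d between labels in DM also ended without 1 library (highest adjusted p = 0.136, 0.135, 0.0576 and 0.148).

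Of 11 corepressor genes, the partners that carry the repression, 3 were called lower in WT DM (Rfxank, Ctbp2 and Tbl1x), and 2 higher (Ankra2 and Gps2) and 2 lower (Ctbp2 and Tbl1x) in KO DM. Ctbp2 fell by 0.43 ± 0.10 in WT and by 0.61 ± 0.10 in KO. Hdac3, the enzyme that gives class IIa complexes their deacetylase activity, stood at 89.8 ± 7.06, 88.2 ± 2.90, 90.0 ± 7.45 and 84.7 ± 3.18 CPM in WT GM, WT DM, KO GM and KO DM and was called in no comparison. Between labels 1 corepressor was called in GM (Ncor1, higher) and 2 in DM (Gps2 higher, Ctbp2 lower). Leaving out 1 library ended, in at least 1 fit, the calls of Tbl1x in WT (highest adjusted p = 0.188, without WT DM replicate 3), of Ankra2 and Gps2 in KO (0.121 and 0.168, both without KO GM replicate 1) and, between labels, of Ncor1 (0.101, without WT GM replicate 1), Gps2 (0.0643, without KO DM replicate 2) and Ctbp2 (0.179, without KO DM replicate 2).

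Of 6 tested 14-3-3 genes, 1 rose (Ywhah) and 1 fell (Ywhaq) in WT DM, 3 fell in KO DM (Ywhaz, Ywhag and Ywhaq), none was called between labels in GM, and Ywhaz, Ywhag and Ywhah were lower in KO DM than in WT DM, Ywhaz by -0.37 ± 0.07 (adjusted p = 0.000121). The Ywhaz calls held in every fit, whereas leaving out 1 library ended the others in at least 1 fit, except Ywhag between KO media. The highest adjusted p was 0.160 for Ywhah and 0.126 for Ywhaq in WT, 0.155 for Ywhaq in KO, and 0.0842 for Ywhag and 0.0985 for Ywhah between labels.

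Of the 7 other histone deacetylase genes tested, Hdac2 rose and Hdac1 and Hdac8 fell in WT DM, none was called in KO between media or between labels in GM, and Hdac8 and Hdac10 were higher in KO DM than in WT DM. Hdac8, which stood at 11.8 ± 1.47 and 7.35 ± 0.498 CPM in WT GM and WT DM and at 9.09 ± 0.720 and 10.5 ± 1.23 in KO, kept its WT call in every fit. Leaving out 1 library ended the others, with a highest adjusted p of 0.0926 for Hdac2, 0.0757 for Hdac1, 0.0834 for Hdac8 in DM and 0.144 for Hdac10. Of 7 tested MAP kinases that act on MEF2 and MAP kinase kinases upstream of them, 5 fell in WT DM (Map2k6, Mapk11, Map2k3, Mapk14 and Mapk7) and the first 4 of these in KO DM. Map2k6, which activates p38, fell by 0.93 ± 0.19 in WT and by 0.97 ± 0.18 in KO. Between labels none was called in GM, and Mapk7 was called higher in KO in DM, a call that ended without WT DM replicate 2 or KO DM replicate 1 or 2 (adjusted p = 0.0906, 0.0748 and 0.0654).

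Of 10 tested MEF2 coactivator genes, Kat2b, an acetyltransferase gene, rose by 0.54 ± 0.11 in WT DM and by 0.80 ± 0.11 in KO DM. Vgll2, a cofactor of TEAD and MEF2 in muscle, rose by 0.83 ± 0.20 in WT, from 7.73 ± 0.857 to 13.7 ± 1.83 CPM. The KO libraries held 1 count of Vgll2 in GM and 4 in DM, against 224 and 392 in WT, and it was called lower in both media. Smarcd3 rose in KO DM and was lower in KO GM than in WT GM, both calls ending without KO GM replicate 1 (adjusted p = 0.0638 and 0.0511), and Maml1 was higher in KO DM than in WT DM. In the calcineurin and NFAT list, 10 of 11 were tested. Ppp3ca, a catalytic subunit of calcineurin, rose by 0.48 ± 0.09 in WT and by 1.10 ± 0.09 in KO, Rcan2 rose under both labels, and Ppp3cb rose and Rcan1 fell in WT. Between labels, Nfatc4 and Rcan1 were lower and Ppp3r1 higher in KO in GM, and Ppp3ca was higher and Rcan2 lower in DM. The call of Rcan1 in WT ended in 3 of the 12 fits with 1 library left out (highest adjusted p = 0.143, without WT DM replicate 3). That of Ppp3r1 ended in 11 of the 12 (highest adjusted p = 0.250, without WT GM replicate 1).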

How the data were processed

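Gene expression was measured by RNA-seq in 12 C2C12 libraries (3 per group). The values are raw counts per Ensembl gene, as the authors deposited them in a single table. STAR 2.7.1a, RSEM 1.3.3, DESeq2 1.40.2 and GRCm39 are named in the submitters' processing notes. Which tool made the counts, the annotation and the use of strand is not given in the sources used here. A further 4 columns were empty and were left out.

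Genes were kept by filterByExpr (13250 of 55416, with 99.9% of counts) and scaled by TMM in edgeR 4.0.16 (R 4.3.3). One robust quasi-likelihood model of all 12 libraries gave 5 contrasts, tested 2-sided and called at a Benjamini-Hochberg adjusted p below 0.05. The SE is the change over the root of its F statistic. A group at 0 counts was bounded by 3 counts over the group. Likeness was computed on log2 CPM (prior count 2) over genes with a mean of at least 5 CPM. The script for the test was tested on simulated data.

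Members and the 12 gene lists were chosen with earlier results of these data known. Named genes are the 7 members, up to 4 called genes of each list by size, the 3 most similar profiles and, added later, other called list genes and the neighbours of Mef2c. Alternatives were 3 other scalings, DESeq2 1.42.0, limma-voom (3.58.1), other filters, dispersion without robust estimation, a replicate block and 6 libraries alone. Further fits left out each library in turn, or replicate 3 of both GM groups. Lengths came from GENCODE M21 on GRCm38, since no annotation of GRCm39 was used here, and were planned only for the build of the files.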

Additional observations from a re-analysis of the deposited data

Results flagged for a closer look

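The difference between the responses of KO and WT libraries to DM was called (edgeR, adjusted p below 0.05) for none of the 7 genes. For Mef2c the difference could not be sized. Over all genes tested it was called for 8.86%. The 13 list genes below are given because they were called, so their number is no comparison with the 7. On the log2 scale, KO minus WT, the difference was 0.89 for Hdac8, -0.97 for Camk2a, 0.59 for Sik1, -0.51 for Camk2d, 0.62 for Ppp3ca and 0.46 for Rcan1. It was 1.45 for Smyd1, 0.78 for Nr4a1, 0.52 for Des, 1.23 for Musk, 0.94 for Chrnd, -0.41 for Eno3 and 0.64 for Myod1. Hdac8 fell in WT and was not called in KO, and Camk2a rose by less in KO.

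The calls of Camk2d, Ppp3ca, Smyd1, Musk, Chrnd and Myod1 held in every fit that left out 1 library. That of Camk2a ended without WT GM replicate 1 (adjusted p = 0.0653) and that of Hdac8 without WT GM replicate 2 (0.0547). Those of Nr4a1, Des, Sik1, Rcan1 and Eno3 ended in 2 or more such fits, with a highest adjusted p of 0.0647, 0.0540, 0.0840, 0.0906 and 0.123.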

How the results depend on the processing

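Over the 35 changes of the 7 genes, 797 values under alternatives kept direction and side of the threshold in 747, lost the call in 22, gained one in 16 and turned direction in 12, in each case for a change that was not called. The 12 were Hdac9 between labels in GM (-0.07 without WT GM replicate 1, -0.26 without KO GM replicate 3, -0.15 without replicate 3 of both GM groups, range -0.26 to 0.21 with 1 library left out) and in the difference of responses (0.03 without KO GM replicate 3, range -0.44 to 0.03), Hdac5 between labels in GM (0.02 and 0.05 without KO GM replicates 1 and 2, range -0.19 to 0.05), and, in KO between media, Hdac4 (0.04 without KO GM replicate 3, 0.06 without KO DM replicate 3 and, in another fit, without replicate 3 of both GM groups) and Hdac5 (0.13 without KO GM replicate 3, 0.02 without KO DM replicate 2, range -0.12 to 0.13, and 0.14 without replicate 3 of both GM groups).

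The count of members called higher between labels in DM, 1, became 2 with no filter, in the 6 libraries compared and without replicate 3 of both GM groups, and was 1 to 2 with 1 library left out. Members called higher in the difference of responses, 0, became 3 without replicate 3 of both GM groups, and were 0 to 1 with 1 library left out, as were members called lower in KO between media. Over all genes the difference of responses gave 1174 calls (478 higher, 696 lower), 693 to 1920 with 1 library left out (293 to 969 higher, 400 to 951 lower) and 2709 without replicate 3 of both GM groups (1373 higher, 1336 lower). With total counts alone, 57.8% of these calls were higher, against 40.7%, and the majority also turned in WT between media (47.3% higher, against 55.4%) and between labels in DM (52.0%, against 43.8%). In GM between labels, 1330 genes were higher, and 864 in a fit of the 6 libraries compared. The cause of these shifts was not tested.

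Equal replicate numbers were not taken to pair the libraries: over 18 same-number pairs r was -0.09 to 0.19, and 4 exceeded 0.1. Pairs of unequal number ran from -0.26 (WT GM 3 with KO GM 2) to 0.21 (WT GM 1 with KO GM 2). However, 9 of 12 libraries correlated best with one of their own number, which only 1 library per group carries. With a replicate block, Mef2d in KO between media was called (0.16, adjusted p = 0.0485), and no other call of the 7 genes changed. Of 2280 counts of called list genes under alternatives, 225 moved by over 1.5 times. The lists hold 6 to 18 tested genes each. Depth limits Mef2c in KO, where 1 DM library held 7 counts.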
